A study of Homo sapiens with 9 samples.

Results

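The genes of polyamine metabolism described here are ODC1, AMD1, SRM and SMS, which make polyamines, OAZ1, OAZ2 and AZIN1, which regulate that synthesis, and SAT1, SMOX and PAOX, which break polyamines down. They were chosen by name, 10 of the 20878 genes in the count table, and each was measured by its transcript with the highest total count. All 10 passed the filter on low counts. RNA sequencing had been done on 9 libraries of the human colorectal cancer line SW480, which is labelled APC defective, in 3 groups of 3. The first group is the parental line (SW480), grown without selection. The second is SW480+pEF, clone R38.7 (CONTROL), which carries the empty vector and was kept in G418 at 1.5 mg/ml. The third is SW480+pEF-mycAPC, clone D2.15 (APC), which carries myc-tagged APC in the same vector and was kept in the same concentration of G418. All cells were harvested 72 h after plating. The APC clone was plated at 2 x 1e5 cells and the other lines at 3.35 x 1e5 cells, so a difference of APC from the other groups cannot be told apart from one of plating density. Each clone is 1 line and the libraries of a group were grown on parallel plates, so the p-values reflect no more than plate-to-plate spread. The comparison of APC with CONTROL holds the vector and G418 constant but sets different clones against each other. An effect of APC therefore cannot be told apart from a difference between clones. The comparison of CONTROL with SW480 joins cloning, vector and drug for 1 empty-vector clone only.

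Polyamines (putrescine, spermidine and spermine) are small positively charged molecules that bind nucleic acids and that dividing cells need for translation and growth. Ornithine decarboxylase, the product of ODC1, makes putrescine from ornithine. AMD1 decarboxylates S-adenosylmethionine to supply the aminopropyl groups that spermidine synthase (SRM) and spermine synthase (SMS) add in turn. Antizymes (OAZ1, OAZ2) bind ornithine decarboxylase and send it to the proteasome, and the antizyme inhibitor AZIN1 releases it. SAT1 acetylates spermidine and spermine, PAOX oxidises the acetylated forms, and SMOX oxidises spermine directly. ODC1 is a textbook target of the transcription factor MYC, and loss of APC in the colon is known for raised ornithine decarboxylase through Wnt signalling and MYC. Antizyme, ornithine decarboxylase and AMD1 are also strongly controlled at translation and protein turnover, which RNA counts do not measure.

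MYC with its partner MAX binds the E-box CACGTG, and the stretches of the 2 genes with an exact E-box in an annotated promoter window are shown because ODC1 and MYC are compared throughout. Both come from RefSeq windows (250 bases before to 50 after a start) on GRCh38.p14, are read on the minus strand 5′ to 3′, and have the E-box in capitals. The ODC1 stretch, chr2:10447987-10448056, lies around a second annotated start. It falls inside intron 1 of the GENCODE transcript that is the model of the counted RefSeq transcript, whose exon 1 spans 10448121 to 10448504. It holds 2 E-boxes with 28 bases between them, the first beginning 80 bases past exon 1. The SRM stretch, chr1:11060188-11060237, holds 1 E-box that begins 199 bases before the annotated start.
ODC1: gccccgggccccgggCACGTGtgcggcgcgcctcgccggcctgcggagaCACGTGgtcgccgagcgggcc
SRM: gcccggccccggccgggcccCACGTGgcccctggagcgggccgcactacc
The 10 genes matched 10 windows from 7 genes (AZIN1, SMOX and PAOX matched none). CACGTG, which reads the same on both strands, was present in 2 of these 10 windows and in 7.26% of all 35116 windows. The letters CTTTGAT, bound by the TCF and LEF factors of Wnt signalling, were searched on both strands. They were in 0 of the 10 and in 2.62% of all windows. A match is a description of letters, and binding was not measured.

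The libraries held between 16456738 and 19358025 counts. Levels below are counts scaled to library size (CPM) with edgeR's TMM factors, with means ± SD over 3 libraries. Differences are log2 fold changes ± SE from edgeR's quasi-likelihood test, with p-values adjusted by the Benjamini-Hochberg method over all 14255 genes tested and called under 0.05. The targeted gene APC was at 46.6, 49.6 and 51.5 CPM in SW480, 48.1, 46.3 and 49.4 CPM in CONTROL and 149.6, 146 and 139.7 CPM in APC, highest in the libraries labelled as carrying it. Between 6 and 7 of 7 colon epithelium markers reached 1 CPM in every library of a group, with VIL1 the low one in SW480 and CONTROL. Summed leukocyte markers stayed at or below 1.75 CPM and summed endothelial markers at or below 1.52 CPM. Summed fibroblast markers were between 9.88 and 13.99 CPM, and PTPRC, COL3A1 and DCN had no row. Nearly all of the fibroblast sum was COL1A1 (11.0 to 13.1 CPM by group mean). COL1A2 reached at most 0.38 CPM and LUM at most 0.06 CPM in any library.

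Most genes of polyamine metabolism differed between the lines, in both directions and by less than 2-fold except for SMOX. In APC against SW480, 9 of the 10 were called (72.5% of all genes tested were), with SRM, SMS, AMD1, SAT1, AZIN1 and SMOX higher (35.6% of all genes) and ODC1, OAZ2 and PAOX lower (36.9%). In APC against CONTROL, 9 of the 10 were called (70.2% of all genes), with SRM, SMS, AMD1, SAT1 and SMOX higher (34.8%) and ODC1, OAZ1, OAZ2 and AZIN1 lower (35.4%). In CONTROL against SW480, 7 of the 10 were called (50.0% of all genes), with ODC1, SRM, SAT1 and AZIN1 higher (25.3%) and OAZ2, SMOX and PAOX lower (24.7%). The median log2 fold change of the 10 was 0.17 in APC against SW480, 0.02 in APC against CONTROL and 0.08 in CONTROL against SW480, where that of all genes was -0.01 in each. The median size of the change regardless of sign was 0.41, 0.18 and 0.24 in log2 for the 10, in the same order, and 0.35, 0.34 and 0.19 for all genes. These 3 comparisons share libraries, so their values are set side by side and are not independent.

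The fit gave a biological coefficient of variation of 3.56% between plates of a group, and changes far under 1.5-fold were called. Against a minimum fold of 1.5 (edgeR's glmTreat), SAT1 alone of the 10 passed in APC against SW480 (24.6% of all genes did), SMOX alone in APC against CONTROL (23.6%) and 0 of the 10 in CONTROL against SW480 (4.69%), where 7 were called without a minimum fold. The groups' libraries did not overlap for 9 of the 10 genes in APC against SW480 (73.1% of all genes), 9 in APC against CONTROL (73.4%) and 6 in CONTROL against SW480 (56.6%).

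**Figure D1:**
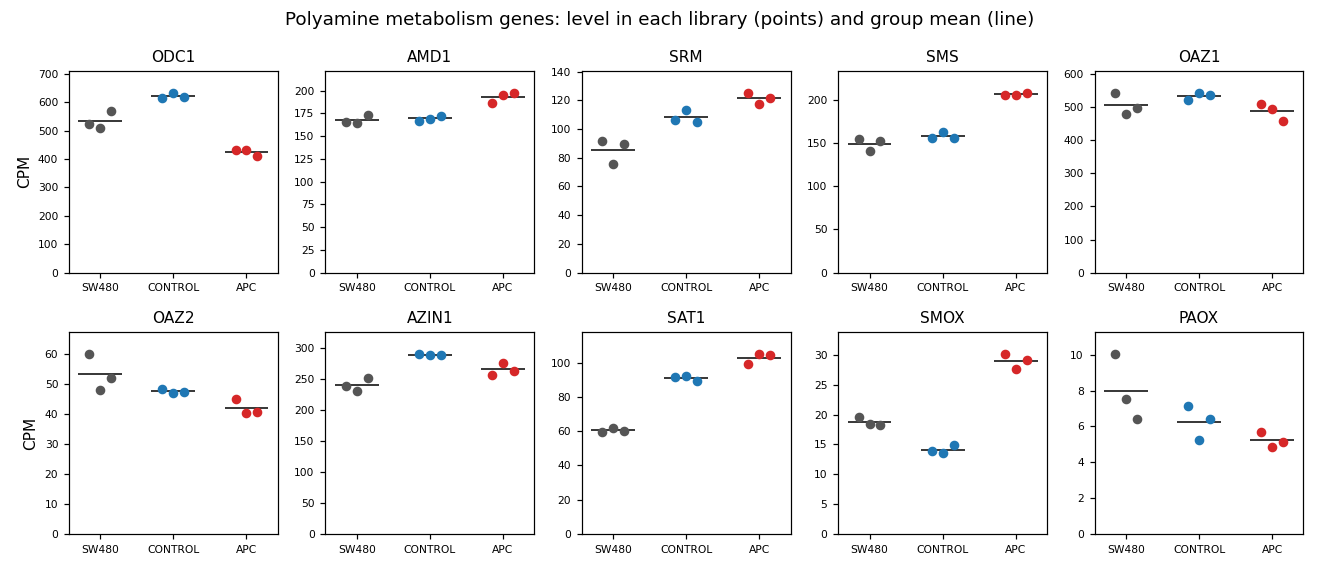
CPM (vertical axis, from 0, one scale per gene) of the 10 polyamine metabolism genes in the 9 libraries. Points are libraries and lines are means of 3. ODC1 is lowest in the 3 APC libraries (412 to 432 CPM) and SMOX highest there (27.7 to 30.1 CPM), while OAZ1 of APC and SW480 overlaps.

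Among the genes that make polyamines, the first enzyme and the later ones moved in opposite directions in the APC clone. ODC1 (NM_002539) was at 524, 509 and 567 CPM in SW480, 613, 632 and 619 CPM in CONTROL and 432, 431 and 412 CPM in APC. The 3 APC libraries were the lowest of the 9 and the 3 CONTROL libraries the highest, with no overlap between any groups. ODC1 was 1.46-fold lower in APC than in CONTROL (425 ± 11.6 against 621 ± 9.41 CPM, log2 fold change -0.55 ± 0.04, edgeR BH-adjusted p 2.45e-14). Against the parental line it was 1.25-fold lower (parental mean 534 ± 30.4 CPM, log2 fold change -0.33 ± 0.04, edgeR BH-adjusted p 5.35e-09). CONTROL itself was 1.16-fold above SW480 (log2 fold change 0.22 ± 0.04, edgeR BH-adjusted p 1.78e-05). In APC against CONTROL, 33.8% of all genes tested changed by at least as much as ODC1.

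MYC, the transcription factor for which ODC1 is a textbook target, was at 121, 116 and 117 CPM in SW480, 144, 154 and 144 CPM in CONTROL and 280.5, 283 and 286 CPM in APC. Its order over the groups was thus APC, CONTROL, SW480 from high to low, while that of ODC1 was CONTROL, SW480, APC. MYC was 1.92-fold higher in APC than in CONTROL (log2 fold change 0.94 ± 0.04, edgeR BH-adjusted p 1.40e-21) and 2.40-fold higher than in SW480 (1.26 ± 0.04, edgeR BH-adjusted p 4.68e-25). In CONTROL against SW480 both were higher, MYC by 0.32 ± 0.04 in log2 (edgeR BH-adjusted p 2.74e-08) and ODC1 by 0.22. On the deposited RPKM, a scale per length, ODC1 exceeded MYC 5.18-fold (4.98 to 5.56 over 3 libraries) in SW480, 4.84-fold (4.71 to 4.92) in CONTROL and 1.72-fold (1.65 to 1.77) in APC.

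**Figure D2:**
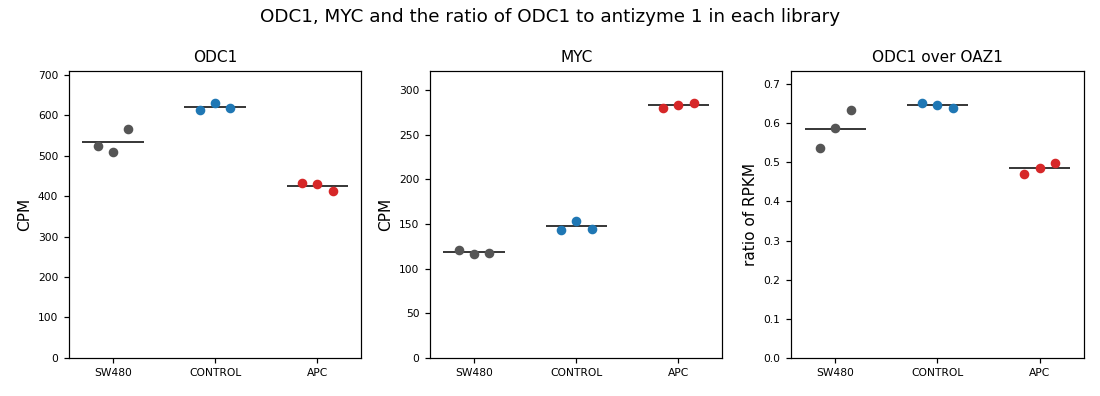
CPM of ODC1 and of MYC, and the ratio of ODC1 to antizyme OAZ1 on the RPKM scale (vertical axes from 0), in each library (points) with group means of 3 (lines). In APC, MYC lies at 280.5 to 286 CPM and ODC1 at 412 to 432 CPM, and the ratio of ODC1 to OAZ1 lies below that of every SW480 and CONTROL library.

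AMD1 (NM_001634), which supplies the aminopropyl donor, was at 166, 164 and 173 CPM in SW480, 167, 169 and 173 CPM in CONTROL and 187, 195 and 197 CPM in APC. The APC libraries were above all the others, and SW480 and CONTROL overlapped. AMD1 in APC exceeded CONTROL 1.14-fold (log2 fold change 0.19 ± 0.04, edgeR BH-adjusted p 3.94e-05) and 1.15-fold higher than in SW480 (0.20 ± 0.04, edgeR BH-adjusted p 1.13e-05). CONTROL and SW480 differed by 0.02 in log2 (95% interval -0.06 to 0.09, edgeR BH-adjusted p 0.757), a value whose sign changed without SW480 replicate 2 (-2.19e-05) or CONTROL replicate 3 (-0.00086). AMD1 has processed pseudogenes with nearly its own sequence, so its counts are uncertain to that extent.

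SRM (NM_003132), spermidine synthase, was at 91.4, 75.6 and 89.4 CPM in SW480, 106, 113 and 105 CPM in CONTROL and 125, 118 and 121 CPM in APC. The groups lay in that order without overlap. It was 1.42-fold higher in APC than in SW480 (log2 fold change 0.51 ± 0.05, edgeR BH-adjusted p 1.39e-08) and 1.12-fold above CONTROL (0.17 ± 0.05, edgeR BH-adjusted p 0.00761). CONTROL was 1.26-fold above SW480 (0.34 ± 0.05, edgeR BH-adjusted p 1.86e-05).

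SMS (NM_004595), spermine synthase, was at 155, 140.4 and 153 CPM in SW480, 156, 163 and 156 CPM in CONTROL and 206, 206 and 208 CPM in APC. The APC libraries stood well above the other 6, which lay close together. SMS in APC exceeded CONTROL 1.30-fold (log2 fold change 0.38 ± 0.04, edgeR BH-adjusted p 1.72e-10) and 1.38-fold higher than in SW480 (0.47 ± 0.04, edgeR BH-adjusted p 1.17e-12). CONTROL against SW480 gave 0.09 ± 0.04 in log2 (95% interval 0.01 to 0.17, edgeR BH-adjusted p 0.0659), although the libraries did not overlap. That difference was called without the filter on low counts (edgeR BH-adjusted p 0.0444), without SW480 replicate 1 (0.0256) and without SW480 replicate 3 (0.0467), and came to 0.05 without SW480 replicate 2 (0.39). Both synthases have pseudogenes, and the sources used here do not say how reads shared with such copies were counted.

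The 3 regulators of ornithine decarboxylase were lower in APC than in CONTROL by -0.12 to -0.18 in log2, and 2 of these calls depended on single libraries. OAZ1 (NM_004152), the main antizyme, was at 543, 481 and 498 CPM in SW480, 522, 542 and 539 CPM in CONTROL and 510.2, 494 and 458 CPM in APC. APC overlapped with SW480, and SW480 overlapped with CONTROL. OAZ1 was 1.10-fold lower in APC than in CONTROL (log2 fold change -0.13 ± 0.04, edgeR BH-adjusted p 0.00706), a call lost without APC replicate 3 (-0.08, edgeR BH-adjusted p 0.136). The difference from SW480 was -0.06 (95% interval -0.14 to 0.03, edgeR BH-adjusted p 0.233), and lay between -0.0915 (without SW480 replicate 2) and -0.00481 (without APC replicate 3) with single libraries left out, called in none of these fits. CONTROL against SW480 was 0.08 (95% interval -0.01 to 0.16, edgeR BH-adjusted p 0.145), and was called without SW480 replicate 1 (0.12, edgeR BH-adjusted p 0.00956) and came to 0.04 without SW480 replicate 2 (edgeR BH-adjusted p 0.505).

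OAZ2 (NM_002537), a second antizyme, was at 59.9, 48.0 and 52.0 CPM in SW480, 48.3, 47.1 and 47.2 CPM in CONTROL and 45.1, 40.3 and 40.6 CPM in APC. SW480 replicate 1 was the highest library, as it was for OAZ1 and PAOX, and the APC libraries were the lowest. OAZ2 was 1.27-fold lower in APC than in SW480 (log2 fold change -0.34 ± 0.06, edgeR BH-adjusted p 4.25e-05). The smaller difference from CONTROL (-0.18 ± 0.07, edgeR BH-adjusted p 0.0191) was not called without CONTROL replicate 1 (0.0618), APC replicate 2 (0.107) or APC replicate 3 (0.0956). The difference of CONTROL from SW480 (-0.17 ± 0.06, edgeR BH-adjusted p 0.0334) came to -0.08 without SW480 replicate 1 (edgeR BH-adjusted p 0.294). It was also not called by DESeq2 (adjusted p 0.0658), with counts summed over transcripts (edgeR BH-adjusted p 0.071), or without CONTROL replicate 1 (0.0566), 2 (0.0868) or 3 (0.0754).

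AZIN1 (NM_015878), the antizyme inhibitor, was at 239, 230.1 and 252 CPM in SW480, 289.9, 289 and 288 CPM in CONTROL and 257, 276 and 264 CPM in APC. APC lay between the other groups, with no overlap. It was 1.09-fold lower in APC than in CONTROL (log2 fold change -0.12 ± 0.04, edgeR BH-adjusted p 0.00539) and 1.10-fold higher than in SW480 (0.14 ± 0.04, edgeR BH-adjusted p 0.00129). CONTROL was 1.20-fold above SW480 (0.27 ± 0.04, edgeR BH-adjusted p 6.16e-07). AZIN1 has an antisense gene, and reads of the pair cannot be told apart where strand was not used in counting, which the sources used here do not give.

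Set beside OAZ1 and AZIN1 on the RPKM scale, ODC1 was lowest in APC, and set beside OAZ2 it was not. The ratio of ODC1 to OAZ1 was 0.586 (0.537 to 0.634) in SW480, 0.646 (0.639 to 0.653) in CONTROL and 0.485 (0.471 to 0.499) in APC. The ratio of ODC1 to AZIN1 was 4.68 (4.63 to 4.74), 4.53 (4.46 to 4.60) and 3.38 (3.29 to 3.54) in the same order. In both ratios the APC libraries did not overlap with the others. The ratio of ODC1 to OAZ2 was 9.38 (8.14 to 10.1) in SW480, 12.2 (11.8 to 12.5) in CONTROL and 9.43 (8.90 to 9.96) in APC, where APC and SW480 overlapped and CONTROL stood above both.

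The genes of polyamine breakdown held the largest fitted change of the 10 in each comparison: SAT1 in both comparisons with SW480, and SMOX in APC against CONTROL. SAT1 (NR_027783), the acetyltransferase that starts the export and recycling of spermidine and spermine, was at 59.6, 61.6 and 60.3 CPM in SW480, 91.5, 92.4 and 89.3 CPM in CONTROL and 99.2, 105 and 104 CPM in APC. Both clones stood well above the parental line, and the APC libraries just above CONTROL. SAT1 was 1.70-fold higher in APC than in SW480 (log2 fold change 0.76 ± 0.04, edgeR BH-adjusted p 4.56e-17, and 0.00012 against a minimum fold of 1.5). CONTROL was already 1.50-fold above SW480 (0.59 ± 0.04, edgeR BH-adjusted p 3.94e-13), and 13.1% of all genes changed by at least as much in that comparison. APC exceeded CONTROL by 1.13-fold (0.17 ± 0.04, edgeR BH-adjusted p 0.000444).

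SMOX (NM_001270691), spermine oxidase, was at 19.6, 18.4 and 18.3 CPM in SW480, 13.96, 13.6 and 14.8 CPM in CONTROL and 30.1, 27.7 and 29.2 CPM in APC. The APC libraries were the highest and the CONTROL libraries the lowest, without overlap, which is the reverse of ODC1. SMOX was 2.05-fold higher in APC than in CONTROL (log2 fold change 1.04 ± 0.07, edgeR BH-adjusted p 5.14e-15, and 1.72e-07 against a minimum fold of 1.5). It was 1.55-fold higher than in SW480 (0.63 ± 0.07, edgeR BH-adjusted p 3.23e-10), a difference that did not pass against the minimum fold (edgeR BH-adjusted p 0.337). CONTROL was 1.33-fold below SW480 (-0.41 ± 0.07, edgeR BH-adjusted p 2.73e-05). In APC against CONTROL, 17.8% of all genes changed by at least as much as SMOX.

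PAOX (NM_152911), the oxidase of acetylated polyamines, had 84 to 186 counts per library, the fewest of the 10. It was at 10.0, 7.50 and 6.39 CPM in SW480, 7.14, 5.22 and 6.39 CPM in CONTROL and 5.66, 4.86 and 5.14 CPM in APC. SW480 replicate 1 stood highest, and CONTROL overlapped with both other groups. PAOX was 1.52-fold lower in APC than in SW480 (log2 fold change -0.61 ± 0.15, edgeR BH-adjusted p 0.000725). The difference from CONTROL was -0.27 (95% interval -0.59 to 0.05, edgeR BH-adjusted p 0.129), called without CONTROL replicate 2 (-0.37, edgeR BH-adjusted p 0.0434) and reduced to -0.16 without CONTROL replicate 1 (edgeR BH-adjusted p 0.426). In CONTROL against SW480 it was -0.34 ± 0.14 (edgeR BH-adjusted p 0.0472), and -0.15 without SW480 replicate 1 (edgeR BH-adjusted p 0.393). That last call was lost with DESeq2 (adjusted p 0.0906), with summed counts (edgeR BH-adjusted p 0.0685), with limma on log2 RPKM (0.0717 and 0.0757), in a fit of 6 libraries (edgeR BH-adjusted p 0.0622) and without any of 5 other single libraries: SW480 replicate 2, CONTROL replicate 2 or 3 and APC replicate 2 or 3 (edgeR BH-adjusted p 0.0532 to 0.195).

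**Figure D3:**
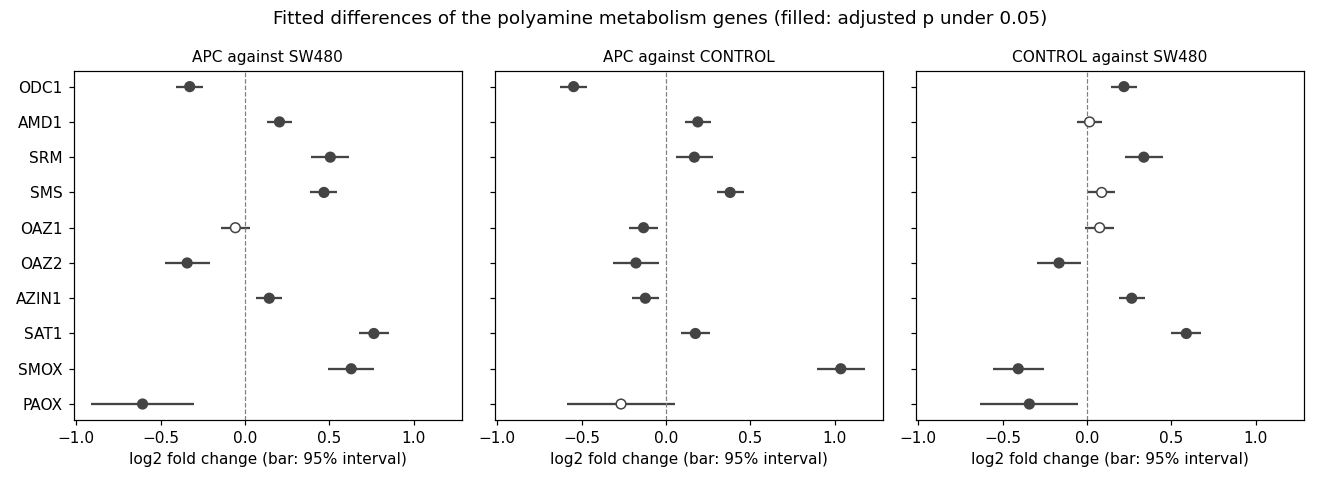
Fitted log2 fold changes (horizontal axes) of the 10 genes in the 3 comparisons, with bars for 95% intervals and filled points for an adjusted p under 0.05. In APC against CONTROL, SMOX lies at 1.04 and ODC1 at -0.55, and the others between -0.27 and 0.38. PAOX has the widest intervals.

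On the RPKM scale, which allows levels to be compared between genes, the 10 transcripts spanned from OAZ1 to PAOX in every group. In SW480, OAZ1 was highest at 395.5 ± 25.8 RPKM, followed by ODC1 (231 ± 11.6), SMS (72.5 ± 3.61), SRM (59.97 ± 5.91), AZIN1 (49.4 ± 1.99), SAT1 (46.1 ± 0.90), AMD1 (43.8 ± 0.93), OAZ2 (24.9 ± 2.86), SMOX (7.21 ± 0.32) and PAOX (3.84 ± 0.91). No neighbours in that order overlapped on the lengths of the counted transcripts. The counted SAT1 transcript has 1174 bases, and the coding one has 1064 bases with 98.8% of its reads. The place of SAT1 just below AZIN1 in SW480 therefore depends on the transcript chosen. In CONTROL, SMS (76.0 ± 1.74 RPKM) and SRM (74.8 ± 2.74) overlapped, and SAT1 (68.3 ± 1.17) stood above AZIN1 (58.6 ± 0.36). In APC the order was that of CONTROL without overlaps, with SMS at 98.2 ± 1.48 RPKM, SRM at 83.3 ± 1.91 and SAT1 at 76.5 ± 3.04.

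ODC1 held second place in all 3 groups but took a smaller share of the summed RPKM of the 10 in APC, 19.1% against 24.7% in SW480 and 25.8% in CONTROL. OAZ1 took 39.3%, 42.3% and 39.97% in the same order. The ratio of the directly acting oxidase SMOX to PAOX was 1.93 (1.56 to 2.28) in SW480, 1.83 (1.56 to 2.08) in CONTROL and 4.44 (4.24 to 4.55) in APC, so both transcripts were within a few fold of each other everywhere and furthest apart in APC.

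The rest of the pathway was described from 5 lists of 31 genes, of which 30 had a row and 26 passed the filter on low counts. In APC against CONTROL 17 of the 26 were called (9 higher, 8 lower, median log2 fold change 0.05). In APC against SW480 21 were called (11 higher, 10 lower, median -0.12), and in CONTROL against SW480 18 (15 higher, 3 lower, median 0.16). The corresponding shares of all genes are the 70.2%, 72.5% and 50.0% given above. By direction, 34.8% of all genes were higher and 35.4% lower in APC against CONTROL. The shares were 35.6% and 36.9% in APC against SW480, and 25.3% and 24.7% in CONTROL against SW480. Each list is small and direction was not tested, so nothing particular to a list is read from its counts.

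Of the genes that supply precursors, 1 of 5 tested rose and 3 fell in APC against CONTROL (34.8% and 35.4% of all genes). Against SW480, 2 rose and 2 fell (35.6% and 36.9%). ARG2, the mitochondrial arginase that makes ornithine, was at 69.5, 84.4 and 75.5 CPM in SW480, 94.0, 84.8 and 89.1 CPM in CONTROL and 39.2, 38.8 and 40.5 CPM in APC. The APC libraries were far below all the others. Its log2 fold change was -1.18 ± 0.06 against CONTROL (edgeR BH-adjusted p 2.58e-16) and -0.95 ± 0.06 against SW480 (edgeR BH-adjusted p 3.78e-14).

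OAT, ornithine aminotransferase, which interconverts glutamate semialdehyde and ornithine, the substrate of ODC1, moved the other way. It was at 140.0, 139 and 135 CPM in SW480, 153, 149 and 155 CPM in CONTROL and 234, 241 and 237 CPM in APC. The log2 fold change was 0.64 ± 0.04 against CONTROL (edgeR BH-adjusted p 5.16e-17) and 0.78 ± 0.04 against SW480 (edgeR BH-adjusted p 1.95e-19). AGMAT, the agmatinase gene, fell by 0.40 on the log2 scale against CONTROL (edgeR BH-adjusted p 0.000219), and MAT2B, the regulatory subunit of S-adenosylmethionine synthesis, fell by 0.25 (edgeR BH-adjusted p 2.95e-06). MAT2A, the catalytic subunit, differed by 0.06 from CONTROL (edgeR BH-adjusted p 0.132) and was higher by 0.31 than in SW480 (edgeR BH-adjusted p 1.26e-08). ARG1 and MAT1A, the liver forms, did not pass the filter.

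Of the transport genes, 4 of 7 tested rose and 2 fell in APC against CONTROL (34.8% of all genes rose and 35.4% fell). Against SW480, 5 rose and 2 fell (35.6% and 36.9% of all genes), and in CONTROL against SW480, 6 rose and 0 fell (25.3% and 24.7%). With 7 genes and no test of direction, nothing particular to transport is read from these counts. SLC18B1, a vesicular polyamine transporter, was at 7.27, 7.66 and 6.07 CPM in SW480, 9.72, 9.77 and 9.66 CPM in CONTROL and 19.3, 18.4 and 21.3 CPM in APC. Its log2 fold change was 1.02 ± 0.09 against CONTROL (edgeR BH-adjusted p 2.01e-12) and 1.49 ± 0.09 against SW480 (edgeR BH-adjusted p 3.87e-16). The largest fall was that of SLC47A1, an exporter of organic cations, from 11.4 ± 0.72 CPM in CONTROL to 5.87 ± 0.62 CPM in APC (log2 fold change -0.96 ± 0.11, edgeR BH-adjusted p 4.36e-09). Parental SW480 had 8.11 ± 1.31 CPM of it, between both clones.

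In the salvage of methylthioadenosine, the by-product of both synthases, 2 of 5 genes rose and 1 fell in APC against CONTROL (34.8% and 35.4% of all genes). MTAP, which cleaves it, rose by 0.25 ± 0.05 in log2 (edgeR BH-adjusted p 0.000129) and ENOPH1 by 0.12 ± 0.05 (edgeR BH-adjusted p 0.0185), while ADI1 fell by 0.39 (edgeR BH-adjusted p 4.12e-10). MRI1 gave 0.03 (95% interval -0.10 to 0.17, edgeR BH-adjusted p 0.676) and APIP -0.07 (-0.16 to 0.03, edgeR BH-adjusted p 0.219). Against SW480, 2 of the 5 rose (MTAP by 0.38 and ENOPH1 by 0.42) and 2 fell (ADI1, -0.42, and MRI1, -0.21). Of all genes, 35.6% rose and 36.9% fell in that comparison.

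Spermidine is also the donor for hypusine, a modification of the translation factor eIF5A made by DHPS and DOHH. Of these 4 genes, 2 rose and 1 fell in APC against CONTROL (34.8% and 35.4% of all genes). EIF5A2, the second eIF5A gene, was at 82.9, 85.5 and 83.1 CPM in SW480, 134, 126 and 134 CPM in CONTROL and 60.5, 68.9 and 59.1 CPM in APC. CONTROL was the highest group and APC the lowest, as for ODC1. Its log2 fold change was -1.07 ± 0.05 against CONTROL (edgeR BH-adjusted p 1.47e-19) and -0.42 ± 0.05 against SW480 (edgeR BH-adjusted p 6.06e-09). The abundant EIF5A, which has near-identical copies, rose from 1227 ± 32.3 to 1439 ± 54.8 CPM (0.23 ± 0.04, edgeR BH-adjusted p 1.29e-05), and DOHH rose by 0.54 ± 0.08 (edgeR BH-adjusted p 5.61e-07). DHPS gave -0.07 (95% interval -0.18 to 0.04, edgeR BH-adjusted p 0.226).

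Of the other enzymes and regulators, 0 of 5 rose and 1 fell in APC against CONTROL (34.8% and 35.4% of all genes). Against SW480, 0 rose and 2 fell (35.6% and 36.9%). SAT2, a relative of SAT1, was at 36.9, 34.8 and 35.4 CPM in SW480, 42.3, 41.1 and 39.3 CPM in CONTROL and 25.9, 25.6 and 25.7 CPM in APC. Its log2 fold change was -0.67 ± 0.06 against CONTROL (edgeR BH-adjusted p 2.05e-12) and -0.47 ± 0.06 against SW480 (edgeR BH-adjusted p 8.09e-09). SAT1 exceeded SAT2 on the RPKM scale 1.39-fold (1.32 to 1.45) in SW480, 1.83-fold (1.77 to 1.86) in CONTROL and 3.27-fold (3.14 to 3.35) in APC, without overlap. AOC1, a diamine oxidase listed as ABP1, was at 4.30 ± 0.23 CPM in APC, 3.88 ± 0.63 in CONTROL and 6.16 ± 0.75 in SW480, and was called against SW480 (log2 fold change -0.52 ± 0.13, edgeR BH-adjusted p 0.000946) and not against CONTROL (0.15, 95% interval -0.16 to 0.45, edgeR BH-adjusted p 0.384). AZIN2 (listed as ADC, 2.00 to 2.34 CPM by group mean), OAZ3 (9.87 to 11.1) and SATL1 (1.14 to 1.59) were called in neither comparison.

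**Figure D4:**
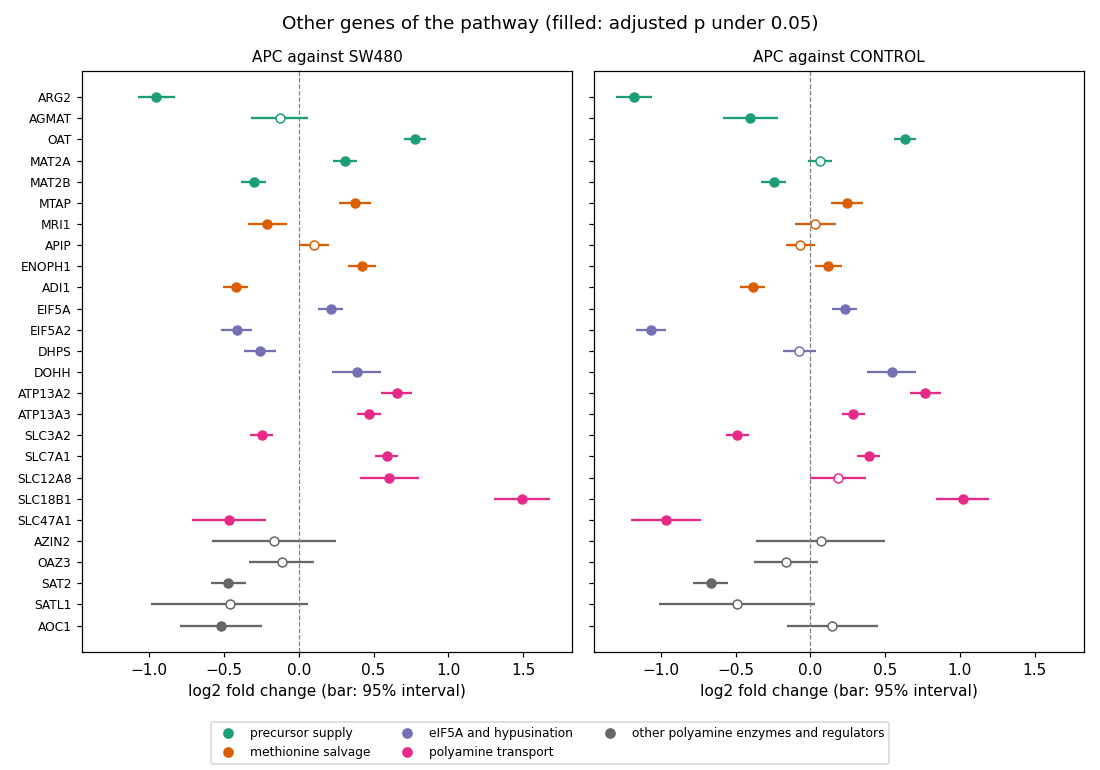
Log2 fold changes (horizontal axes, bars for 95% intervals, filled points for an adjusted p under 0.05) of the 26 other pathway genes tested, coloured by list. In APC against CONTROL, ARG2 (-1.18) and EIF5A2 (-1.07) lie furthest to the left and SLC18B1 (1.02) furthest to the right.

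The genes whose profile over the 9 libraries was nearest to that of ODC1, by Euclidean distance between centred log2 CPM values among 9843 genes with a mean of at least 10 CPM, were NUP205 (distance 0.129), ORMDL3 (0.13), GOLGA5 (0.136), TYMS (0.139) and NQO2 (0.141). TYMS, thymidylate synthase, had means of 304 CPM in SW480, 353 in CONTROL and 249 in APC, in the order of ODC1. Nearest to SAT1 were PLS3 (0.117), TMEM126B (0.144), LMO7 (0.144), UAP1 (0.18) and RAI14 (0.195). PLS3, an actin-bundling protein, had means of 132, 202 and 219.5 CPM in the same order, with the larger step between SW480 and CONTROL. All of these genes were picked for likeness over the same 9 libraries, so a shared pattern over the groups follows from that choice.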

How the data were processed

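Polyadenylated RNA of the 9 libraries had been prepared with a TruSeq kit, per the labels' protocols. The submitters' processing notes name hg19 and, with no version, Trimmomatic, TopHat and GATK. Which counter, strand setting and annotation release were used is not given in the sources used here. Whole reads per RefSeq transcript (39276 transcripts) make up the deposited counts. For 100% of values (tolerance 0.0001), the deposited RPKM equal the count divided by length and by a constant of each library. Reads were counted for every transcript they overlap, as a gene's second transcript had a median of 98.3% of the first's counts, so 1 transcript per gene (highest total) was used. Of 65 names turned into dates, 62 were restored from the transcript identifier.

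Counts were fitted with edgeR 4.0.16 in R 4.3.3 (filterByExpr, TMM, robust quasi-likelihood fit), 9 libraries in 1 fit. The scripts were tested on simulated data. RPKM were used for levels between genes and for ratios. TMM factors were 0.982 to 1.03. Replicate libraries differed beyond counting noise (chi-square per degree of freedom 1.35 to 5.54). SW480 replicate 1 gave 5.12 and 5.54 against replicates 2 and 3, which gave 2.33 between them. APC replicate 1 gave 3.18 and 3.12 against replicates 2 and 3, which gave 1.77.

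The genes and lists were chosen with earlier results of these data known. All members are named. Of the other lists, the genes called with the largest change in each direction in APC against CONTROL are given values, with all genes of lists with up to 5 tested, and the 5 profiles nearest to ODC1 and to SAT1. The alternatives tried were each library left out in turn, a minimum fold of 1.5, the replicate number as a block, fits of 6 libraries, limma 3.58.1 on log2 RPKM, summed or second transcripts, no filter, RLE size factors and DESeq2 1.42.0. Promoter windows are on GRCh38.p14 and were not joined to hg19 coordinates. Protein sequences were not used here.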

Additional observations from a re-analysis of the deposited data

How the results depend on the processing

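The alternatives reuse most of the same data, so the tally here is not one of independent checks. ODC1, SRM, OAZ1 and OAZ2 have 1 transcript each and kept their counts in the fit of second transcripts. Fits without 1 library also cover comparisons of groups that lost none. Of 570 values of the 10 genes under alternatives, 517 kept their direction and their side of the threshold, 44 lost and 5 gained a call, and 4 changed sign. All 4 were AMD1 in CONTROL against SW480, which was not called: -0.0045 and -0.0046 with limma on log2(RPKM + 1) and log2(RPKM + 0.1), and -2.19e-05 without SW480 replicate 2 and -0.00086 without CONTROL replicate 3, in a range of -0.00086 to 0.0391 over the 9 libraries left out one at a time. The minimum fold of 1.5, which asks for a larger change by construction, left 1 of the 10 genes called in APC against SW480, 1 in APC against CONTROL and 0 in CONTROL against SW480, 3, 5 and 0 of the other pathway genes, and 3501, 3364 and 668 of all genes. Without single libraries or under the other settings, 9, 7 to 10 and 5 to 8 of the 10 were called. The calls that turned were those of OAZ1, OAZ2, PAOX and SMS given above, and the cause was not tested. Replicate numbers are not stated to pair plates, and the deviations of same-numbered libraries correlated at -0.0889 to 0.159. Only SW480 replicate 1 and APC replicate 1 (0.159 with each other) correlated best with a library of their own number. With the replicate number as a block, 9, 9 and 7 of the 10 genes, 21, 17 and 18 other pathway genes and 10297, 9993 and 7109 of all genes were called. PAOX, with the fewest counts, had the widest intervals.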

Other observations

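The transcript counted for SAT1 is an RNA annotated as non-coding that is 110 bases longer than the coding transcript, and reads were counted for both. The longer one had 38 more reads than the coding one out of 3379 (1.12%, exact 95% interval 0.797 to 1.54) in SW480, 59 of 4927 (1.20%, 0.913 to 1.54) in CONTROL and 63 of 5401 (1.17%, 0.897 to 1.49) in APC, sums of 3 libraries each with intervals for counting error only. By library, the extra reads were 21, 11 and 6 in SW480, 28, 13 and 18 in CONTROL and 20, 18 and 25 in APC. The intervals leave out that spread between plates, and whether the share differs between groups was not tested.

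Reads were counted for every transcript they overlap, so the share of another transcript largely reflects sequence in common with the counted one. It does not measure how much each transcript was used, and the ranges below are descriptions only. The shorter AMD1 transcript had 88.7% to 89.7% of its reads over the 9 libraries and the shorter SMS transcript 87.9% to 90.3%. The shortest SMOX transcript had 42.2% to 49.1%, overlapping between groups. The shortest PAOX transcript ranged from 63.9% to 82.1% on few reads.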
